A study of Mus musculus with 13 samples.

Results

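The DEAD and DEAH box helicase genes of the mouse were examined for R-loops, hybrids of RNA with its DNA template that leave the second DNA strand unpaired. The 52 genes were chosen by name alone, as protein-coding genes of the mm9 GENCODE vM1 annotation called Ddx or Dhx followed by a digit, out of 22380 protein-coding genes. They comprised 37 Ddx and 15 Dhx genes. Ddx1, whose product was depleted in this study, and Dhx9 were left out. One member carries the name without the enzyme: Ddx26b is related to a subunit of the Integrator complex.

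DEAD and DEAH box proteins use ATP to unwind or remodel RNA and RNA-protein complexes. Most work in the nucleus or nucleolus, where they drive the spliceosome through its steps, process ribosomal RNA or load mRNA for export, and others act in translation, RNA decay or the sensing of viral RNA. Several, among them Ddx5, Ddx21, Ddx23, Ddx39b and Ddx41, are known from other work to act on R-loops, so the genes of this family encode proteins of the kind whose loss was studied, while the measurements below concern R-loops over the genes themselves.

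R-loops were mapped in N2A cells, a mouse neuroblastoma line, by DRIP-seq, in which DNA cut with restriction enzymes is immunoprecipitated with the S9.6 antibody against RNA-DNA hybrids. Cells had been transfected with a scramble siRNA (siScramble) or with siRNA against DDX1 (siDDX1) or against EXOSC3 (siEXOSC3), a cap subunit of the RNA exosome. Peak lists of 3 libraries per group, each from a separately seeded plate of the same line according to the methods, were used together with 1 list per group from DNA digested with RNase H, the enzyme that removes the RNA of a hybrid. The transfection time of these libraries was not given in the sources used here.

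Titles and peak names disagreed on the treatment in 12 of 12 lists. Peaks carry the name siDDX1 where the title says siScramble, siEXOSC3 where it says siDDX1, and siScramble where it says siEXOSC3. Groups here are those of the titles, and every library is named by its title. By peak names, siDDX1 against siScramble would compare siEXOSC3 with siDDX1, siEXOSC3 against siScramble would compare siScramble with siDDX1, and siEXOSC3 against siDDX1 would compare siScramble with siEXOSC3. The tests across all 3 groups and the tests of RNase H have the same value under either naming.

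The untreated libraries held from 23882 to 42571 peaks and the RNase H libraries from 3811 to 8034. The lists give no read depth. The lowest peak numbers belonged to siScramble replicate 1 and siDDX1 replicate 2, which also covered the fewest bases of the helicase genes. Among genes that mark neuroblasts and neurons, Hand2 and Tubb3 had a peak in 9 of 9 untreated libraries, Gap43 in 8 and Mycn in 2, while Stmn2 and Th had none. Such calls show where hybrids were detected and not how strongly a gene was expressed.

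The digest set many of the peak boundaries over helicase genes. Of 1532 peaks over these genes in untreated libraries, 958 (62.5%) had at least 1 edge exactly at a cut of 1 of the 5 enzymes, and 140 (9.14%) had both. Over all untreated peaks the shares were 56.5% and 7.20%. Cuts lay on average 558 bases apart in the genome. Fragments of 3 genes whose 2 edges recurred to the base in at least 6 libraries are shown by the sequence at each edge, because these are units in which the signal of the gene was measured. Each line gives the plus strand of mm9, read 5′ to 3′, with the enzyme's recognition site in capitals.

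Ddx5 left edge, BsrGI, chr11:106642915-106642942, in an annotated UTR: tttgaaatcacTGTACAgttacttttgt

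Ddx5 right edge, XbaI, chr11:106651104-106651131, outside exons: ttttgatgcccTCTAGAgtaactggcat

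Ddx21 start fragment, left edge, SspI, chr10:62064511-62064538, outside exons: gtcacaagtttAATATTtttatgcaagg

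Ddx21 start fragment, right edge, EcoRI, chr10:62065349-62065376, outside exons: ggtgagcaccgGAATTCagggaccggcg

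Ddx23 start fragment, left edge, EcoRI, chr15:98492522-98492549, outside exons: ggctgcatactGAATTCaaggccagctt

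Ddx23 start fragment, right edge, XbaI, chr15:98497672-98497699, outside exons: tccaaaaatgtTCTAGAgttctacattt

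The Ddx21 fragment of 840 bases and the Ddx23 fragment of 5154 bases had these same edges in 7 of 9 untreated libraries each. The Ddx5 fragment, chr11:106642927-106651119, is 8193 bases long and recurred in 6. All 3 lie over the annotated start of the gene. In the merged peaks that contain these fragments the summit, the position of highest pileup, was not fixed. It moved over 691 bases between libraries in Ddx21 and 2879 in Ddx5. In Ddx23 the summit ran from -4234 to -146 bases from the start, with a median of -4071. The median lies upstream of the gene and outside its 1 kb window. In most libraries this peak thus reached Ddx23 by its edge and not by its summit.

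Peaks over the helicase genes were frequent. A peak within the gene bounds extended by 1 kb was present in 9 of 9 untreated libraries for 32 of 52 members (61.5%), while 26.2% of all protein-coding genes met the same rule. At least 1 untreated library had a peak over 47 members (90.4%, against 49.9% of all genes). The share of members with a peak was 79.1% ± 6.34 per library and that of all genes was 38.5% ± 4.04 (SD, n = 9). Within each of the 9 untreated libraries the members' share was the higher one. Without the 2 libraries with the fewest peaks, 34 members had a peak in every remaining library, against 30.5% of all genes.

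**Figure D1:**
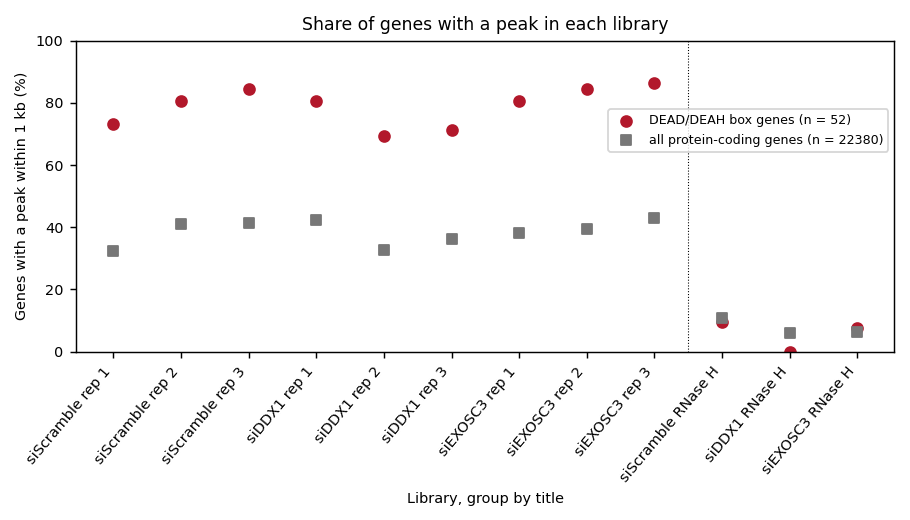
Share of genes with a peak within 1 kb of their bounds, in percent on the vertical axis, for each of 12 libraries; circles are the 52 helicase genes and squares all 22380 protein-coding genes. The helicase genes lie between 69.2% and 86.5% in the untreated libraries and between 0% and 9.62% in the RNase H libraries.

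Gene length differs between the lists, with a median of 22.4 kb in members and 15.4 kb in all genes. In genes up to 10 kb, 5 of 8 members (62.5%) and 18.6% of all genes had a peak in 9 of 9 libraries. From 10 to 20 kb the counts were 11 of 14 members (78.6%) and 32.6% of all genes, and from 20 to 40 kb they were 10 of 19 (52.6%) and 32.2%. Above 40 kb they were 6 of 11 (54.5%) and 29.7%. The members' share was thus the higher one in each of these 4 length classes. The members were not chosen for expression, and expression was not analysed here.

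The extent of the peaks, in contrast, was close to that of other genes with regular peaks. The median member had 9.11% of its extended bounds under peaks, while the median over all genes was 0%. Among genes with a peak in 9 of 9 libraries, the medians were 19.7% for members and 18.4% for all genes. RNA helicases outside the name rule, such as Dhx9, Eif4a1 and Upf1, had a median of 9.82% and a peak in 9 of 9 libraries in 16 of 21 genes.

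**Figure D2:**
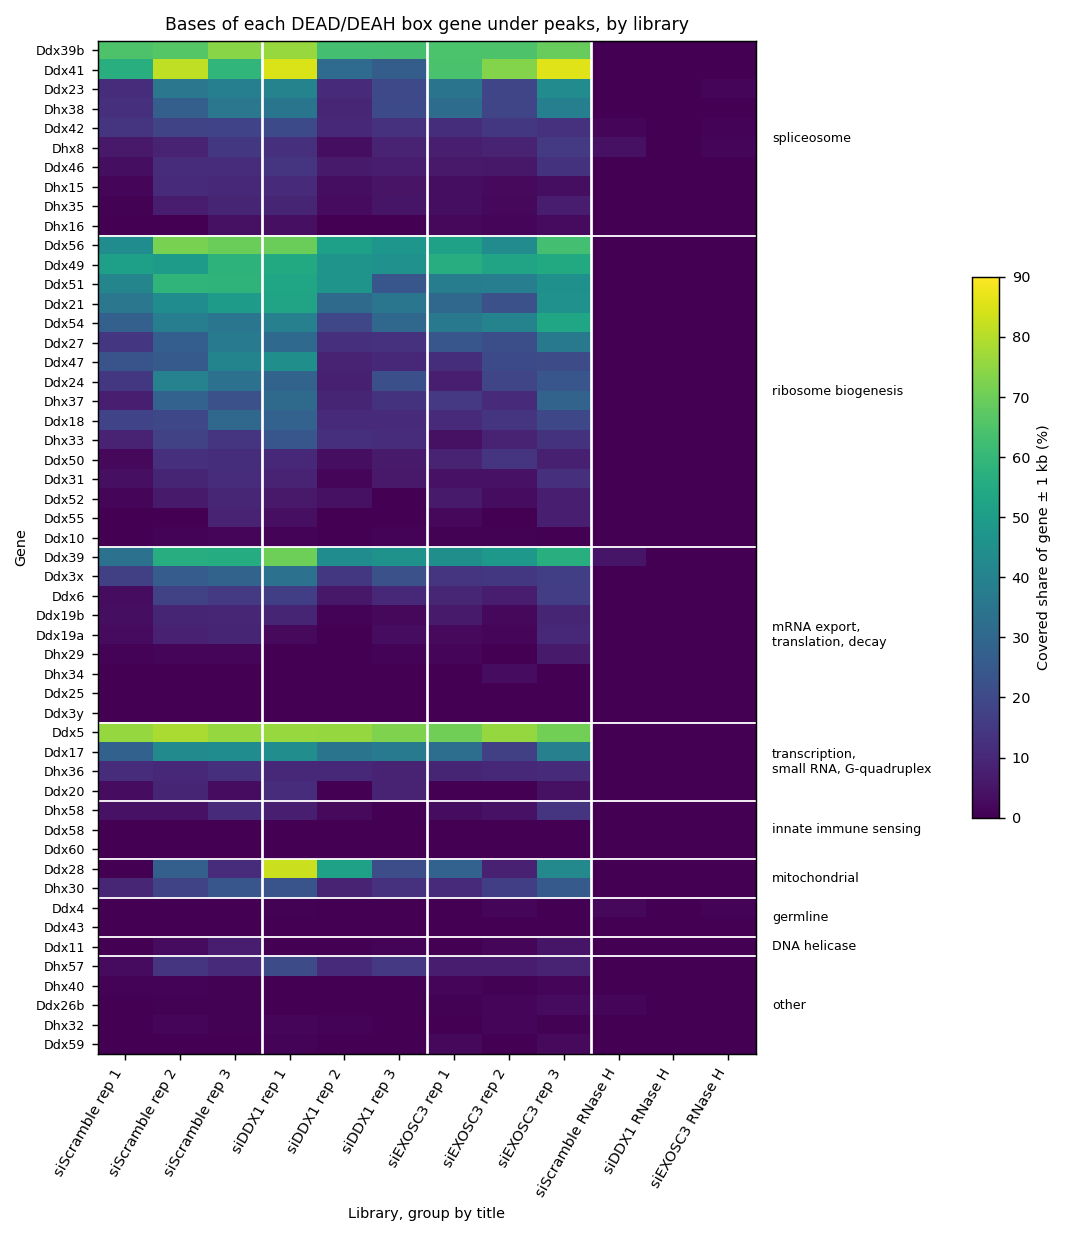
Share of each helicase gene, extended by 1 kb, that lay under peaks, in percent by colour, with the 52 genes in rows grouped by role and the 12 libraries in columns. Ddx5, Ddx39b and Ddx41 are the brightest rows on average (74.6%, 67.3% and 62.6%), and the 3 RNase H columns are dark for nearly all genes.

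The spliceosomal helicases and those of ribosome biogenesis were called most regularly. A peak in 9 of 9 untreated libraries was found for 9 of 10 spliceosomal genes and 14 of 16 genes of ribosome biogenesis. The only spliceosomal gene short of this was Dhx16, with a peak in 5 libraries, and in ribosome biogenesis they were Ddx52, with 8, and Ddx55, with 5. Genes of mRNA export, translation and decay reached it in 4 of 9 cases, and those of transcription, small RNA and G-quadruplexes in 3 of 4. All of these shares stand beside the 26.2% of all genes given above, and the differences between roles were not tested.

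Among the 3 genes of innate immune sensing and the 2 of the germline, 1 in each role had any untreated peak, where 49.9% of all genes did. Ddx58, which encodes the cytoplasmic RNA sensor RIG-I, and Ddx60 had no peak in any untreated library. Dhx58, of the same role, had peaks within its extended bounds in 8. Its only region called in more than 1 library, chr11:100566074-100567121 in 7, lay upstream of the gene, and the extended bounds overlap Kat2a. Regions inside Dhx58 were each called in 1 library. Ddx43, a germline gene, had none, and Ddx4, the mouse vasa gene, had peaks in 2. Ddx25, which acts in the testis, and the Y-linked Ddx3y were the other members with no untreated peak. Chromosome Y as a whole had 1 peak in siScramble replicate 2 and 0 in every other untreated library, so this absence is not particular to Ddx3y. Both mitochondrial helicase genes were called, Dhx30 in 9 libraries and Ddx28 in 8. The single DNA helicase gene, Ddx11, was called in 5.

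Ddx5 had the largest covered share of its extended bounds and the highest fold enrichment of the family. In covered bases, which grow with gene length, Ddx39b and Ddx21 were higher on average. Its product is a coregulator of transcription and splicing. The gene lies at chr11:106641669-106650499 on the minus strand. Peaks covered 8193, 8510 and 8193 bases in the siScramble libraries, 8254, 8193 and 7861 in those of siDDX1 and 7651, 8193 and 7666 in those of siEXOSC3, and no RNase H library had a peak there. This was 74.6% ± 2.67 of the extended gene (SD, n = 9), and the groups overlapped (exact permutation p = 0.121 across groups, adjusted p = 1). The highest fold enrichment of a peak over the local background, a linear ratio from the peak caller, lay between 42.2 and 81.2, and its lowest percentile among the peaks of an untreated list was 99.87. The extended gene also overlaps Ccdc45 and Polg2, so that not every covered base belongs to Ddx5 alone.

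Ddx39b, which encodes the splicing and export factor UAP56, followed with 67.3% ± 4.72 (SD, n = 9) and a highest fold enrichment between 16.7 and 41.1. Its paralogue Ddx39 had 50.5% ± 10.3. Ddx41, whose product joins the late spliceosome, had a mean as high as 62.6%, but its spread was wide, from 26.4% to 85.7% (SD 21.9 percentage points, n = 9). The next genes were Ddx56 with 56.8% ± 11.8, Ddx49 with 52.0% ± 4.35, Ddx51 with 44.8% ± 11.0 and Ddx21 with 38.5% ± 9.96, all of which act on pre-ribosomal RNA. Among these 8 genes, neighbours in the order differed by less than the larger SD of the pair, apart from Ddx5 and Ddx39b. The ranges of Ddx5 and Ddx39b nevertheless overlapped, from 70.6% to 78.6% and from 63.1% to 76.0%.

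Other members known for work at R-loops or in transcription covered a wide range. Ddx17, the paralogue of Ddx5, had 35.4% ± 8.76 of its extended bounds under peaks, and Ddx23, a component of the U5 snRNP, had 28.2% ± 12.9. Dhx36, which unwinds G-quadruplexes, had 10.4% ± 1.14, and Dhx15, which takes spliceosomes apart, had 5.66% ± 3.88 (SD, n = 9 for each). Ddx19a, an mRNA export factor at the nuclear pore, had 4.40% ± 3.74 and was called in 8 of 9 libraries. Dhx36 was even between libraries, with 3463 to 4870 covered bases, whereas Dhx15 ran from 716 to 4700.

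Counted from either end, the helicase genes were most often under a peak within a few kb. In the untreated libraries, the share of member and library pairs under a peak was 29.5% at the annotated start and highest, at 34.6%, 0.75 kb into the gene. Over all genes it was highest at the start itself, with 13.2%. Counted from the annotated end, the members' share was highest 2.75 kb inside the gene, with 25.4%, and that of all genes 1.5 kb inside, with 10.8%. The members' curve rests on 52 genes and is uneven. Every gene was counted at every distance, also past its far end. Ddx28, for example, is only 1871 bases long. Part of the fall with distance can thus lie outside the genes, and 1 peak of a short gene can appear in both curves.

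**Figure D3:**
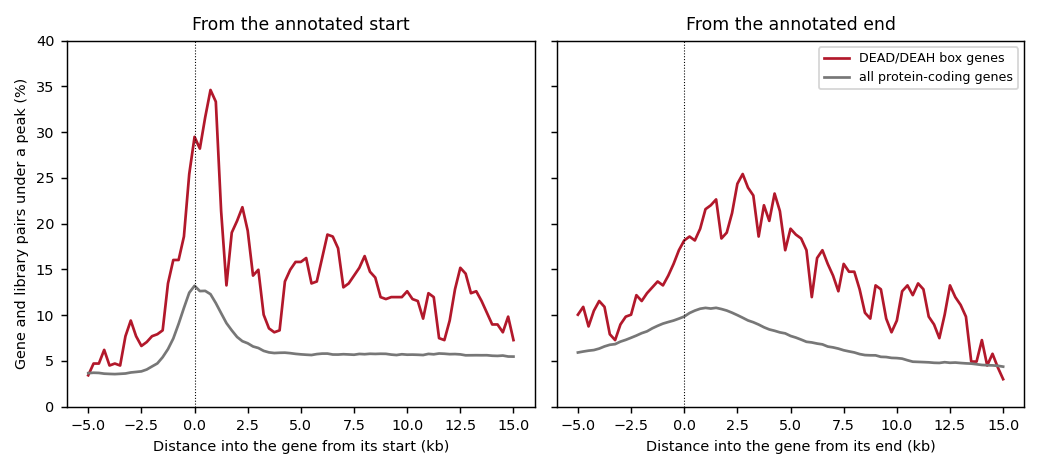
Share of gene and library pairs under a peak, in percent, over 9 untreated libraries. The horizontal axis is the distance into the gene in kb from its annotated start (left) and end (right). Negative distances lie outside the gene, and positive ones do too where they exceed its length. The helicase genes reach 34.6% near the start and 25.4% near the end, above the 13.2% and 10.8% of all genes.

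Merging the peaks of the untreated libraries gave 292 regions over 47 members. Of these, 52 came within 1 kb of an annotated start with any part, 43 others came within 1 kb of an end, and 197 were internal. Their median widths were 1070, 1127 and 537 bases. By this rule a wide merged region falls more readily into the start or end class, so the classes are not independent of width. The region of Ddx41, 10346 bases wide, spanned the whole gene and counted as a start region. The shares below were not computed for regions of all genes. Regions at the start were called in 9 of 9 libraries in 17 of 52 cases (32.7%) and regions at the end in 14 of 43 (32.6%), but internal regions in only 18 of 197 (9.14%). In turn, 87 internal regions (44.2%) were found in a single library, as were 9 (17.3%) at the start and 13 (30.2%) at the end. A peak that itself came within 1 kb of the annotated start was present in 9 of 9 libraries for 14 members (26.9%, against 11.2% of all genes). Merging counts more: Dhx33 and Ddx24 had start regions called in 9 libraries but such a peak in 6.

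GC content after the start was higher in members with such a peak than in those without, as it was in all genes. Over the 1000 bases after the start, GC content had a median of 60.2% in the 14 members with a start peak in 9 of 9 libraries and of 51.8% in the 15 members with no start peak. In all genes of the same classes the medians were 60.3% and 50.2%. GC skew, the excess of G over C on the coding strand divided by their sum, was positive in 47 of 52 members (90.4%) and in 64.8% of all genes. Its median was 0.0979 in the members with a regular start peak and 0.0806 in those without, and 0.0631 and 0.0284 in all genes of these classes. The skew was positive in 92.9% of the members with a regular start peak and in 93.3% of those without, and in 76.4% and 60.3% of all genes of these classes. These are descriptions, and no test was made over the list.

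RNase H removed nearly all of the signal. RNase H libraries had a peak over 5, 0 and 4 members in siScramble, siDDX1 and siEXOSC3, and over 36 to 45 members in the untreated libraries. Together the members had 162 ± 45.5 kb under peaks in the untreated libraries (SD, n = 9) and 4.40, 0 and 1.91 kb in the RNase H libraries. Covered bases were lower in the RNase H libraries for 32 of 47 members tested (68.1%), against 46.9% of all genes tested, by a two-sided exact permutation test over 64 assignments (p = 0.015625, the smallest it can give, adjusted p = 0.0319). These 32 are the members with a peak in 9 of 9 untreated libraries, and all 5682 genes that passed likewise came from the 5868 genes with such peaks. The effect in the 32 members lay between -6.57 and -2.77 on the log2 scale of covered bases plus 100, with a median of -5.29.

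In 28 of these 32 members no RNase H library had a peak, so that their value is set by the untreated coverage and the added 100 bases and gives no order of response. The other 4 were Dhx8, Ddx42, Ddx23 and Ddx39, and Dhx8, a spliceosomal helicase that releases the spliced mRNA, had the value of -2.77. Dhx8 covered 2283, 3299 and 5345 bases in the siScramble libraries, 4407, 1186 and 3214 in those of siDDX1 and 2774, 3206 and 5534 in those of siEXOSC3. After RNase H, 1452 bases remained under peaks in the siScramble library, 0 in that of siDDX1 and 629 in that of siEXOSC3. The remaining peaks lay in 2 internal regions that were called in 9 of 9 untreated libraries, chr11:101599671-101601626 and chr11:101601882-101603111.

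Peaks after RNase H were found over 6 members (11.5%, against 13.5% of all genes). Besides Dhx8 these were Ddx42, Ddx39, Ddx23, Ddx4 and Ddx26b. Ddx42, a partner of the U2 snRNP, covered 467 and 352 bases in the RNase H libraries of siScramble and siEXOSC3, Ddx39 covered 676 in that of siScramble, and Ddx23 covered 338 in that of siEXOSC3. Each of these 3 was far lower than in the untreated libraries of the same groups. Ddx4 went the other way, with 1148 and 588 bases in the RNase H libraries of siScramble and siEXOSC3 and untreated values of 0 except 328 in siDDX1 replicate 1 and 730 in siEXOSC3 replicate 2 (log2 effect 1.57, exact permutation p = 0.125). These peaks overlapped 1 region inside the gene, chr13:113422501-113423230.

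The next question was whether depletion of DDX1 or EXOSC3 moved R-loops over the other helicase genes. Covered bases did not differ across the 3 groups for any member after adjustment over 11103 genes (exact permutation F test over 280 splits, smallest adjusted p = 1), and 0% of all genes passed. With 280 splits the smallest p is 0.00357, so adjustment over so many genes leaves little room for a call. An unadjusted p under 0.05 was reached by 2 of 47 members, against 2.8% of all genes.

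Those 2 were Dhx40 and Ddx26b, both with little signal. Dhx40, at chr11:86582348-86621198, covered 410, 393 and 255 bases in the siScramble libraries, 0, 0 and 0 in those of siDDX1 and 702, 265 and 609 in those of siEXOSC3. The siDDX1 libraries thus had no peak over the gene, and all libraries of the other groups had one (exact permutation p = 0.0107, adjusted p = 1). Ddx26b, at chrX:53708034-53761020, covered 0, 345 and 343 bases in the siScramble libraries, 0, 0 and 0 in those of siDDX1 and 293, 855 and 1363 in those of siEXOSC3 (exact permutation p = 0.0429, adjusted p = 1). Here siScramble overlapped both other groups. The peaks of Dhx40 fell into 3 regions and those of Ddx26b into 3 as well, none of them called in more than 4 libraries.

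Few members had groups that did not overlap. From siScramble to siDDX1, 0 members were higher throughout and 1 was lower, Dhx40 (0.82% and 1.87% of all genes tested). From siScramble to siEXOSC3, 0 were higher and 2 were lower, Ddx47 and Ddx3x (6.44% and 3.57%). From siDDX1 to siEXOSC3, 2 were higher, Dhx40 and Ddx26b, and 1 was lower, Dhx57 (5.08% and 2.38%). None of these shares stood clear of its background, and 3 libraries against 3 cannot give an exact p below 0.1. When covered bases were scaled to each library's total over genes, the members apart in the 3 pairs together numbered 19 instead of 6, and the shares of all genes rose to 8.3%, 15.7% and 15.6%.

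**Figure D4:**
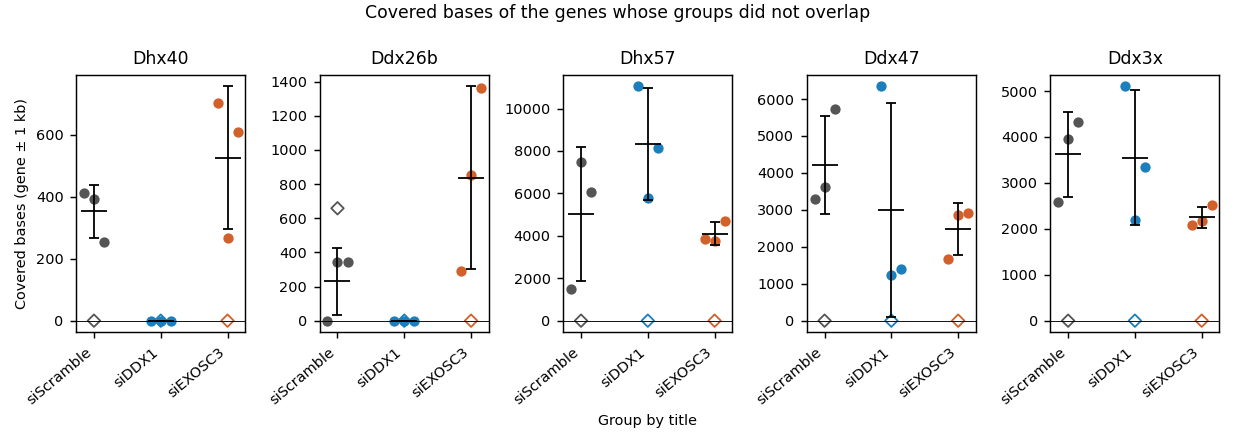
Covered bases of the 5 helicase genes with groups that did not overlap in at least 1 pair, by group; filled points are the 3 untreated libraries, open diamonds the RNase H library, and bars the mean with SD. Dhx40 and Ddx26b are at 0 in all siDDX1 libraries, and the 3 other genes have peaks in every untreated library.

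The 3 other genes had peaks in every untreated library, and none of them passed the test across groups. Ddx47, which acts in ribosome biogenesis, covered 3292, 3626 and 5735 bases in the siScramble libraries, 6345, 1245 and 1398 in those of siDDX1 and 1660, 2865 and 2920 in those of siEXOSC3. Ddx3x, a translation factor, covered 2580, 3960 and 4318 bases in the siScramble libraries, 5105, 2185 and 3356 in those of siDDX1 and 2075, 2179 and 2514 in those of siEXOSC3. Dhx57 covered 1485, 7503 and 6076 bases in the siScramble libraries, 11051, 5778 and 8153 in those of siDDX1 and 3836, 3771 and 4712 in those of siEXOSC3. In each of them, 1 group spanned the values of another, and exact permutation p values across groups were 0.568, 0.239 and 0.154 (adjusted p = 1).

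The remaining members with small p across groups were Ddx5 (above), Ddx28, Ddx54, Ddx59, Dhx36 and Ddx49, with exact permutation p values between 0.121 and 0.282. Ddx28, which acts on mitochondrial ribosomes, had 0, 1051 and 449 bases in the siScramble libraries, 3203, 1988 and 829 in those of siDDX1 and 1092, 321 and 1636 in those of siEXOSC3. Ddx54, of ribosome biogenesis, ran from 3338 bases in siDDX1 replicate 2 to 9303 in siEXOSC3 replicate 3. Ddx59 had no peak in siScramble, 1 library with 280 bases in siDDX1 and 2 libraries with 497 and 659 in siEXOSC3.

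Single regions, read as called or not, gave 4 all-or-none cases, called in 3 of 3 libraries of 1 group and 0 of 3 of another, among the 292 (1.37%). Over all genes the share was 2.01% of 67007 regions, so the members' share was not above the background. Regions at the start of Dhx8, chr11:101593860-101594908, and of Ddx10, chr9:53056156-53056585, were called in 3 of 3 siDDX1 libraries and in no siScramble library (0.196% of all regions). An internal region of Ddx51, chr5:111086934-111087332, was called in 3 of 3 siScramble libraries and in no siDDX1 library (0.373% of all regions). An internal region of Dhx35, chr2:158626626-158627385, was called in 3 of 3 siEXOSC3 libraries and in no other (0.539% of all regions against siScramble and 0.501% against siDDX1). No region of a member was called in 3 of 3 siScramble or 3 of 3 siDDX1 libraries and in no siEXOSC3 library (0.497% and 0.392% of all regions). Their median fold enrichment lay between 4.71 and 5.97, where that of all 292 regions was 5.20.

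Height of the signal was compared in genes called in every library. The log2 of the highest fold enrichment per gene, centred on each library's median, was fitted for 5868 genes, 32 of them members. No member passed an adjusted p of 0.05 in limma for siDDX1 against siScramble, siEXOSC3 against siScramble or siEXOSC3 against siDDX1, and 0%, 0.375% and 0.528% of all genes did. The smallest adjusted p among members was 0.520, 0.129 and 0.170. Without adjustment, 1, 4 and 4 members had p under 0.05, against 7.81%, 14.8% and 16% of all genes. Members' differences ran from -0.51 to 0.34, from -0.56 to 0.39 and from -0.51 to 0.55, with medians of -0.00, -0.08 and -0.10 against 0.01, -0.00 and -0.01 over all genes.

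**Figure D5:**
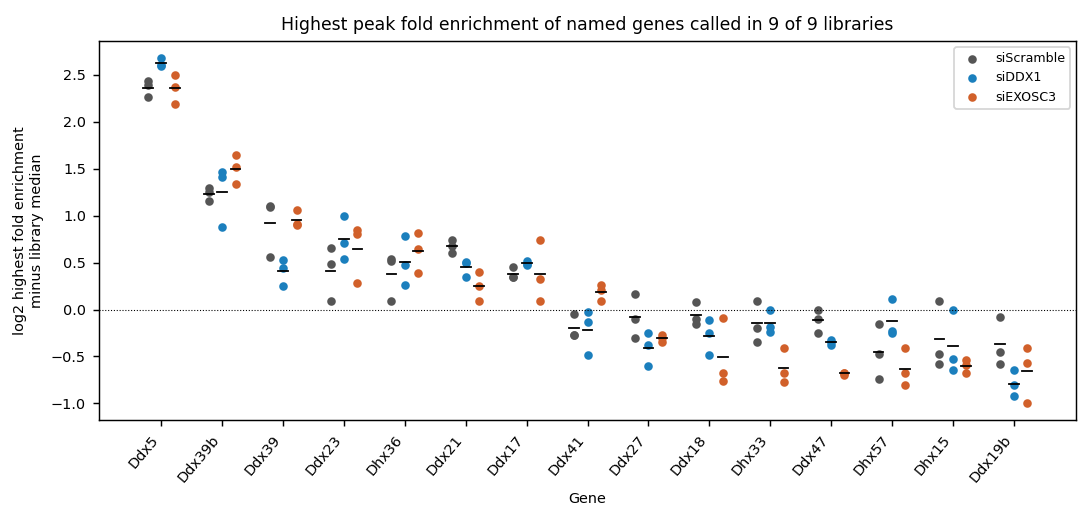
Highest peak fold enrichment as log2 minus the library median, for 15 named helicase genes called in 9 of 9 libraries, with 1 point per untreated library in the colour of its group and a line at the group mean. Ddx5 lies highest, between 2.19 and 2.68, and the 3 groups of most genes overlap. For Ddx23 and Dhx36 the range is that of a region whose median summit lay upstream of the gene, outside its 1 kb window.

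The member with the smallest p was Ddx47. Its centred log2 values were -0.10, -0.24 and -0.01 in siScramble, -0.32, -0.38 and -0.35 in siDDX1 and -0.68, -0.67 and -0.70 in siEXOSC3. Low fold enrichments recur as identical values: those of Ddx47 in siEXOSC3 replicates 1 and 2, 6.21 and 6.12, were also those of Dhx35 and Dhx37. The closeness of values within a group is therefore not a measure of precision. The siEXOSC3 libraries were the lowest, and the difference from siScramble was -0.56 (SE 0.17, limma adjusted p = 0.129). Dhx33, Ddx21 and Ddx18 had differences of -0.47, -0.42 and -0.45 in the same contrast (adjusted p = 0.251, 0.276 and 0.310), and Ddx41 had 0.39 (adjusted p = 0.341). None of these 5 differences passed the test. Of the 14 ribosome biogenesis genes in the fit, 11 had negative and 3 positive differences (median -0.24), and of all 32 members 19 and 13. The 14 include Ddx47, Dhx33, Ddx21 and Ddx18, which were named for their small p. The count was made on centred values only and was not tested. No such count was made over all 5868 genes, whose median difference was -0.00. In Ddx21 the direction was not that of the start: within 1 kb of the start the difference was 0.14 (adjusted p = 0.803).

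Ddx39 led the other contrasts. Its centred log2 values were 0.56, 1.10 and 1.09 in siScramble, 0.45, 0.25 and 0.52 in siDDX1 and 0.90, 0.91 and 1.06 in siEXOSC3. The siDDX1 libraries lay below all others, by -0.51 from siScramble (SE 0.20, limma adjusted p = 0.520), and siEXOSC3 lay above siDDX1 by 0.55 (adjusted p = 0.170). For siDDX1 against siScramble the next were Ddx19b with -0.42, Ddx27 with -0.33, Dhx57 with 0.33 and Ddx23 with 0.34 (adjusted p between 0.648 and 0.702). The range of Ddx23's highest fold enrichment, 11.6 to 25.7, was that of its start region. That region had its median summit at -4071 bases from the start, and the extended gene overlaps Cacnb3 and Rnd1. The value of Ddx23 is thus not clearly its own. Within their extended bounds, Ddx39, Ddx27 and Dhx57 also overlap other genes, Cd97, Znfx1 and Morn2. The region that held the largest value of Ddx27 had its median summit at 20393 bases from the start, past the end of the gene. For siEXOSC3 against siDDX1 the next after Ddx39 were Dhx33 with -0.48, Dhx57 with -0.51, Ddx41 with 0.40 and Ddx47 with -0.33 (adjusted p between 0.216 and 0.356).

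Ddx5, with the strongest peaks, had centred log2 values of 2.26, 2.43 and 2.39 in siScramble, 2.59, 2.60 and 2.68 in siDDX1 and 2.37, 2.19 and 2.50 in siEXOSC3. The siDDX1 libraries were the highest by a small margin, with a difference of 0.26 from siScramble that did not pass (SE 0.18, limma adjusted p = 0.743). Ddx17, Ddx39b, Dhx15 and Dhx36 differed from siScramble by 0.11, 0.02, -0.07 and 0.12 in siDDX1 (adjusted p between 0.941 and 0.986) and by 0.00, 0.27, -0.28 and 0.24 in siEXOSC3 (adjusted p between 0.555 and 0.999). The range of Dhx36's highest fold enrichment, 10.9 to 22.5, was that of its start region. That region had its median summit at -1196 bases from the start, outside the 1 kb window. The value of Dhx36, like that of Ddx23, is thus not clearly its own.

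Without centring, the median over all genes shifted by -0.13, 0.13 and 0.26 in the 3 contrasts, and the calls over all genes for siEXOSC3 against siDDX1 changed from 12 higher and 19 lower to 18 higher and 5 lower. For siEXOSC3 against siScramble they changed from 6 higher and 16 lower to 4 higher and 5 lower. The members' medians without centring were -0.14, 0.06 and 0.17, so that their sign turned in the contrasts of siEXOSC3 with siScramble and with siDDX1. Positive differences then numbered 6, 19 and 25 of 32, instead of 16, 13 and 13. No member was called under either setting.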

How the data were processed

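DRIP-seq peak lists of 12 libraries of N2A cells were analysed; the input sample was not analysed here. Per the study's methods and the submitters' processing notes, the authors aligned reads to mm9 with Bowtie2 2.4.4 and called peaks for each library separately with MACS2 2.2.6 against input. The deposited columns used were peak positions, the fold enrichment (a linear ratio) and the −log10 q-value; the deposited −log10 p-value was not used. No peak ran past the end of an mm9 chromosome. Read counts were not used here, so the study's DESeq2 test was not repeated.

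Peaks were assigned to gene bounds extended by 1 kb, and covered bases, presence of a peak and highest fold enrichment were taken per gene. Tests were exact permutation tests (280 splits across groups, 64 assignments for RNase H on log2 of bases plus a pseudocount of 100) and limma 3.58.1 in R 4.3.3 on log2 fold enrichment, with Benjamini-Hochberg adjustment over all genes tested and a threshold of 0.05. Python 3.11.15 with numpy 2.4.6 and pandas 2.3.3 was used, and code was tested on simulated data. Fold enrichment and the extent of peaks depend on depth, which the lists do not give, and on the spacing of restriction sites. Overlapping genes share peaks: 22 of 52 members overlap another protein-coding gene within the extended bounds. Named genes were those with the smallest p in each test, groups that did not overlap, the 8 largest covered shares, any RNase H peak or no untreated peak, and 9 members known from other work. Members, lists and alternatives were chosen with earlier results of these data known. Replicates were separate plates of 1 line. Some items, among them a marker gene and a sequence, are not reported here.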

Additional observations from a re-analysis of the deposited data

Results flagged for a closer look

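Ddx26b differed between groups in its response to RNase H. In siScramble the RNase H library covered 658 bases, above all 3 untreated libraries, a difference of 429 bases from their mean. In siEXOSC3 the RNase H library covered 0, below all 3 untreated libraries, a difference of -837. The difference between the groups was not tested, and each rests on 1 RNase H library. No other member had RNase H above every untreated library in 1 group and below every one in another. Groups of 3 libraries were too small for the check of single outlying libraries.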

How the results depend on the processing

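The count of 32 members with a peak in 9 of 9 untreated libraries and the count of 32 lowered by RNase H each stayed within 1.5 times under all alternatives tried, which were a stricter q-value, other gene bounds, peak midpoints, joined peaks, equally many peaks for the first, other pseudocounts for the second, and leaving out 1 library (32 to 34 for both). The count of members apart between groups, 6 over the 3 pairs, was less stable. It was 10 with a 5 kb extension (2.72%, 9.89% and 7.07% of all genes in the 3 pairs), 10 when each library was cut to equally many peaks (5.24%, 13.9% and 11.5%), and 9 to 28 with 1 library left out, where smaller groups separate more easily (28 without siScramble replicate 1 and 27 without siDDX1 replicate 1, with up to 32.4% of all genes apart in a pair). Among alternatives chosen after seeing the data, it was 33 without the 2 libraries with the fewest peaks (24.7%, 32.3% and 14.4% of all genes) and 19 with scaled covered bases (8.3%, 15.7% and 15.6%). Across groups, 0 genes passed in every exact test and 30 by limma's F test on log2 values, none of them members. The exact p stayed between 0.00357 and 0.0321 for Dhx40 and between 0.0143 and 0.121 for Ddx26b with 1 library left out. No member passed a fold enrichment contrast under any alternative, with adjustment. Ddx21, at -0.42 for siEXOSC3 against siScramble, reversed to 0.14 when only peaks within 1 kb of the start were read; the cause was not tested. With 1 library left out, the calls over all genes ran from 0 to 7, from 0 to 24 and from 5 to 77 in the 3 contrasts.

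Same-numbered replicates of different groups did not deviate together on average (r between -0.30 and 0.42, mean -0.02, against a mean of 0.01 for other pairs). The highest r, 0.42, was nevertheless that of a same-numbered pair, siScramble replicate 3 and siEXOSC3 replicate 3. With 3 libraries per group, such correlations cannot decide whether the numbers pair libraries. With a replicate block, 0 genes passed across groups, 0 members had an unadjusted p under 0.05 (2 without the block), and 0 members passed a fold enrichment contrast. Exact tests of 3 against 3 libraries called 0 genes, since they cannot go below p = 0.1.

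Peak lists limit what can be seen: signal below the authors' threshold was not seen, and signal within a called region was seen only as fold enrichment.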
